A study of Mus musculus with 64 samples.

Results

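The levels of 10 protein-coding genes outside the circadian clock were followed across 64 libraries of mouse ventral tegmental area. They are Eif5a2, Mthfd1l, Cndp2, Fmo2, Nln, Coq2, Cox18, Abcc1, Apoc1 and Dbi, 10 of 24421 gene symbols counted. They were chosen because their level had been seen to differ between the genotype labels of these same libraries, so the size of the label difference and the counts of label calls describe that choice, and nothing is read from them. Each gene was set against the mouse number and against the output of the clock in the same library.

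The study sequenced RNA from 64 adult male mice of strain 129S1/Svlm, with 1 library per mouse. The genotype label was Wildtype or Clock delta 19, an allele of the core clock gene Clock whose protein binds DNA but activates poorly. For 14 days mice received the mood stabiliser valproate (VPA), which inhibits histone deacetylases, or ACY957, an inhibitor selective for class I of those enzymes, or the vehicle that belonged to one of these drugs. Bilateral 1 mm punches were centred on the ventral tegmental area, a midbrain region rich in dopamine neurons, at zeitgeber time 6 (ZT6, the middle of the light phase), about 24 h after the last dose. The wildtype label was carried by 8 VPA, 3 VPA vehicle, 8 ACY957 and 5 ACY957 vehicle mice. The mutant label was carried by 8 VPA, 13 VPA vehicle, 8 ACY957 and 11 ACY957 vehicle mice, although the design text gives 8 mice per group. Zygosity of the Clock allele, drug doses and the make-up of the vehicles are not given in the sources used here. All mice labelled wildtype are numbered 1 to 24 and all labelled mutant 25 to 64, so label and mouse number cannot be told apart across labels.

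In the circadian clock, CLOCK pairs with BMAL1 and binds E-box elements, which read CACGTG in their canonical form, to drive genes such as Per2, Per3, Ciart and Dbp. The Per, Cry and Ciart proteins then repress CLOCK and BMAL1, and Dbp passes the rhythm on through D-box elements. The levels of these targets at one time of day therefore serve as a readout of clock output. The 10 genes themselves work in translation, in one-carbon, peptide and xenobiotic metabolism, in mitochondria and in lipid handling.

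Promoter windows from RefSeq (GRCm38.p6) were read for 6 of the 10 genes. Those of Cndp2, Cox18, Abcc1 and Apoc1 were not read, so whether they hold these elements is not known here. The promoter of Eif5a2 is shown because it holds canonical E-boxes, beside that of the clock target Ciart. Each line gives the 250 bases just before the transcript start in RefSeq, read 5′ to 3′ on the gene's strand, with CACGTG in capitals. The Eif5a2 window is chr3:28781027-28781276 on the plus strand and the Ciart window is chr3:95882229-95882478 on the minus strand.
Eif5a2: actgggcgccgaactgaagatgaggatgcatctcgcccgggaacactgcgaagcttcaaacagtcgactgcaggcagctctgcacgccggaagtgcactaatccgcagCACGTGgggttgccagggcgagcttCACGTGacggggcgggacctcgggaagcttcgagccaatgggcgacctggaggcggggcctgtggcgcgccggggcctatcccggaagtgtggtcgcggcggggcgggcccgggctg
Ciart: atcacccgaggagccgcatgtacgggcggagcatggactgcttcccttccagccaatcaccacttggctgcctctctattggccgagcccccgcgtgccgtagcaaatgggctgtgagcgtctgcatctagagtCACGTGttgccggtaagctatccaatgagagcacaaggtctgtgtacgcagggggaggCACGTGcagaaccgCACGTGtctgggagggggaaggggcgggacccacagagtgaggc
Eif5a2 held 2 canonical E-boxes, which began 142 and 117 bases before the start, and Ciart held 3, which began 116, 58 and 44 bases before it. Of 32851 RefSeq promoter windows of 250 bases, 6.0% held CACGTG, which reads the same on both strands. No CACGTG was found in the windows of Mthfd1l, Nln, Coq2, Fmo2 and Dbi, nor in that of Dbp. Fmo2 and Dbi each held a single E′-box (CACGTT or AACGTG, in 3.8% of windows) in 1 of 2 windows. D-boxes (TTATGTAA, TTACATAA or TTACGTAA, in 0.9% of windows) were found in Per3, with 2 matches, and in no window of the 6 genes. These are matches of letters within the windows and not measured binding.

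Clock output was scored in each library as the mean log2 CPM of Dbp, Per2, Per3 and Ciart, where CPM is the gene's read count scaled by the size of the library. The 64 scores fell into a lower set, at 1.95 to 2.42, and an upper set, at 3.33 to 4.35, with none between. Of the 24 mice labelled wildtype, 23 lay in the upper set, at 3.39 to 3.97, and mouse 24 (ACY957, replicate 8) lay in the lower set at 2.42. Of the 40 mice labelled mutant, 28 lay in the lower set, at 1.95 to 2.40, and 12 in the upper. Of these 12, 8 were vehicle mice numbered 48 and above (mice 49, 50, 51, 52, 57, 59, 60 and 61, at 3.40 to 4.35). The other 4 were mice 26 (VPA), 34 (VPA vehicle), 40 and 42 (both ACY957), at 3.33 to 3.51. In these 13 libraries the score went against the genotype label, so the 10 genes could be read against either. The count of Clock itself does not check the label, since the allele does not remove the transcript: Clock lay at 56.3 to 85.1 CPM under the wildtype label and 34.3 to 89.5 CPM under the mutant label.

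Library totals ranged from 20.1 M to 37.5 M counts, with a median of 25.8 M, and no pair of libraries was identical. The dopamine neuron markers Th, Slc6a3, Ddc, Slc18a2, En1 and Pitx3 were present in every group, but their summed level ranged from 121.6 to 7704.1 CPM in the 28 lower-set libraries labelled mutant and from 627.8 to 10184.0 CPM in the 23 upper-set libraries labelled wildtype. Th was under 8 log2 CPM in 4 libraries. All 10 genes passed the filter on low counts, which kept 15634 genes. Reads per library ran from 3 to 165 for Fmo2, against at least 99 for each of the other 9, so Fmo2 carries the largest counting error. In whole-tissue punches, fewer cells of a type and less RNA per cell cannot be told apart.

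**Figure D1:**
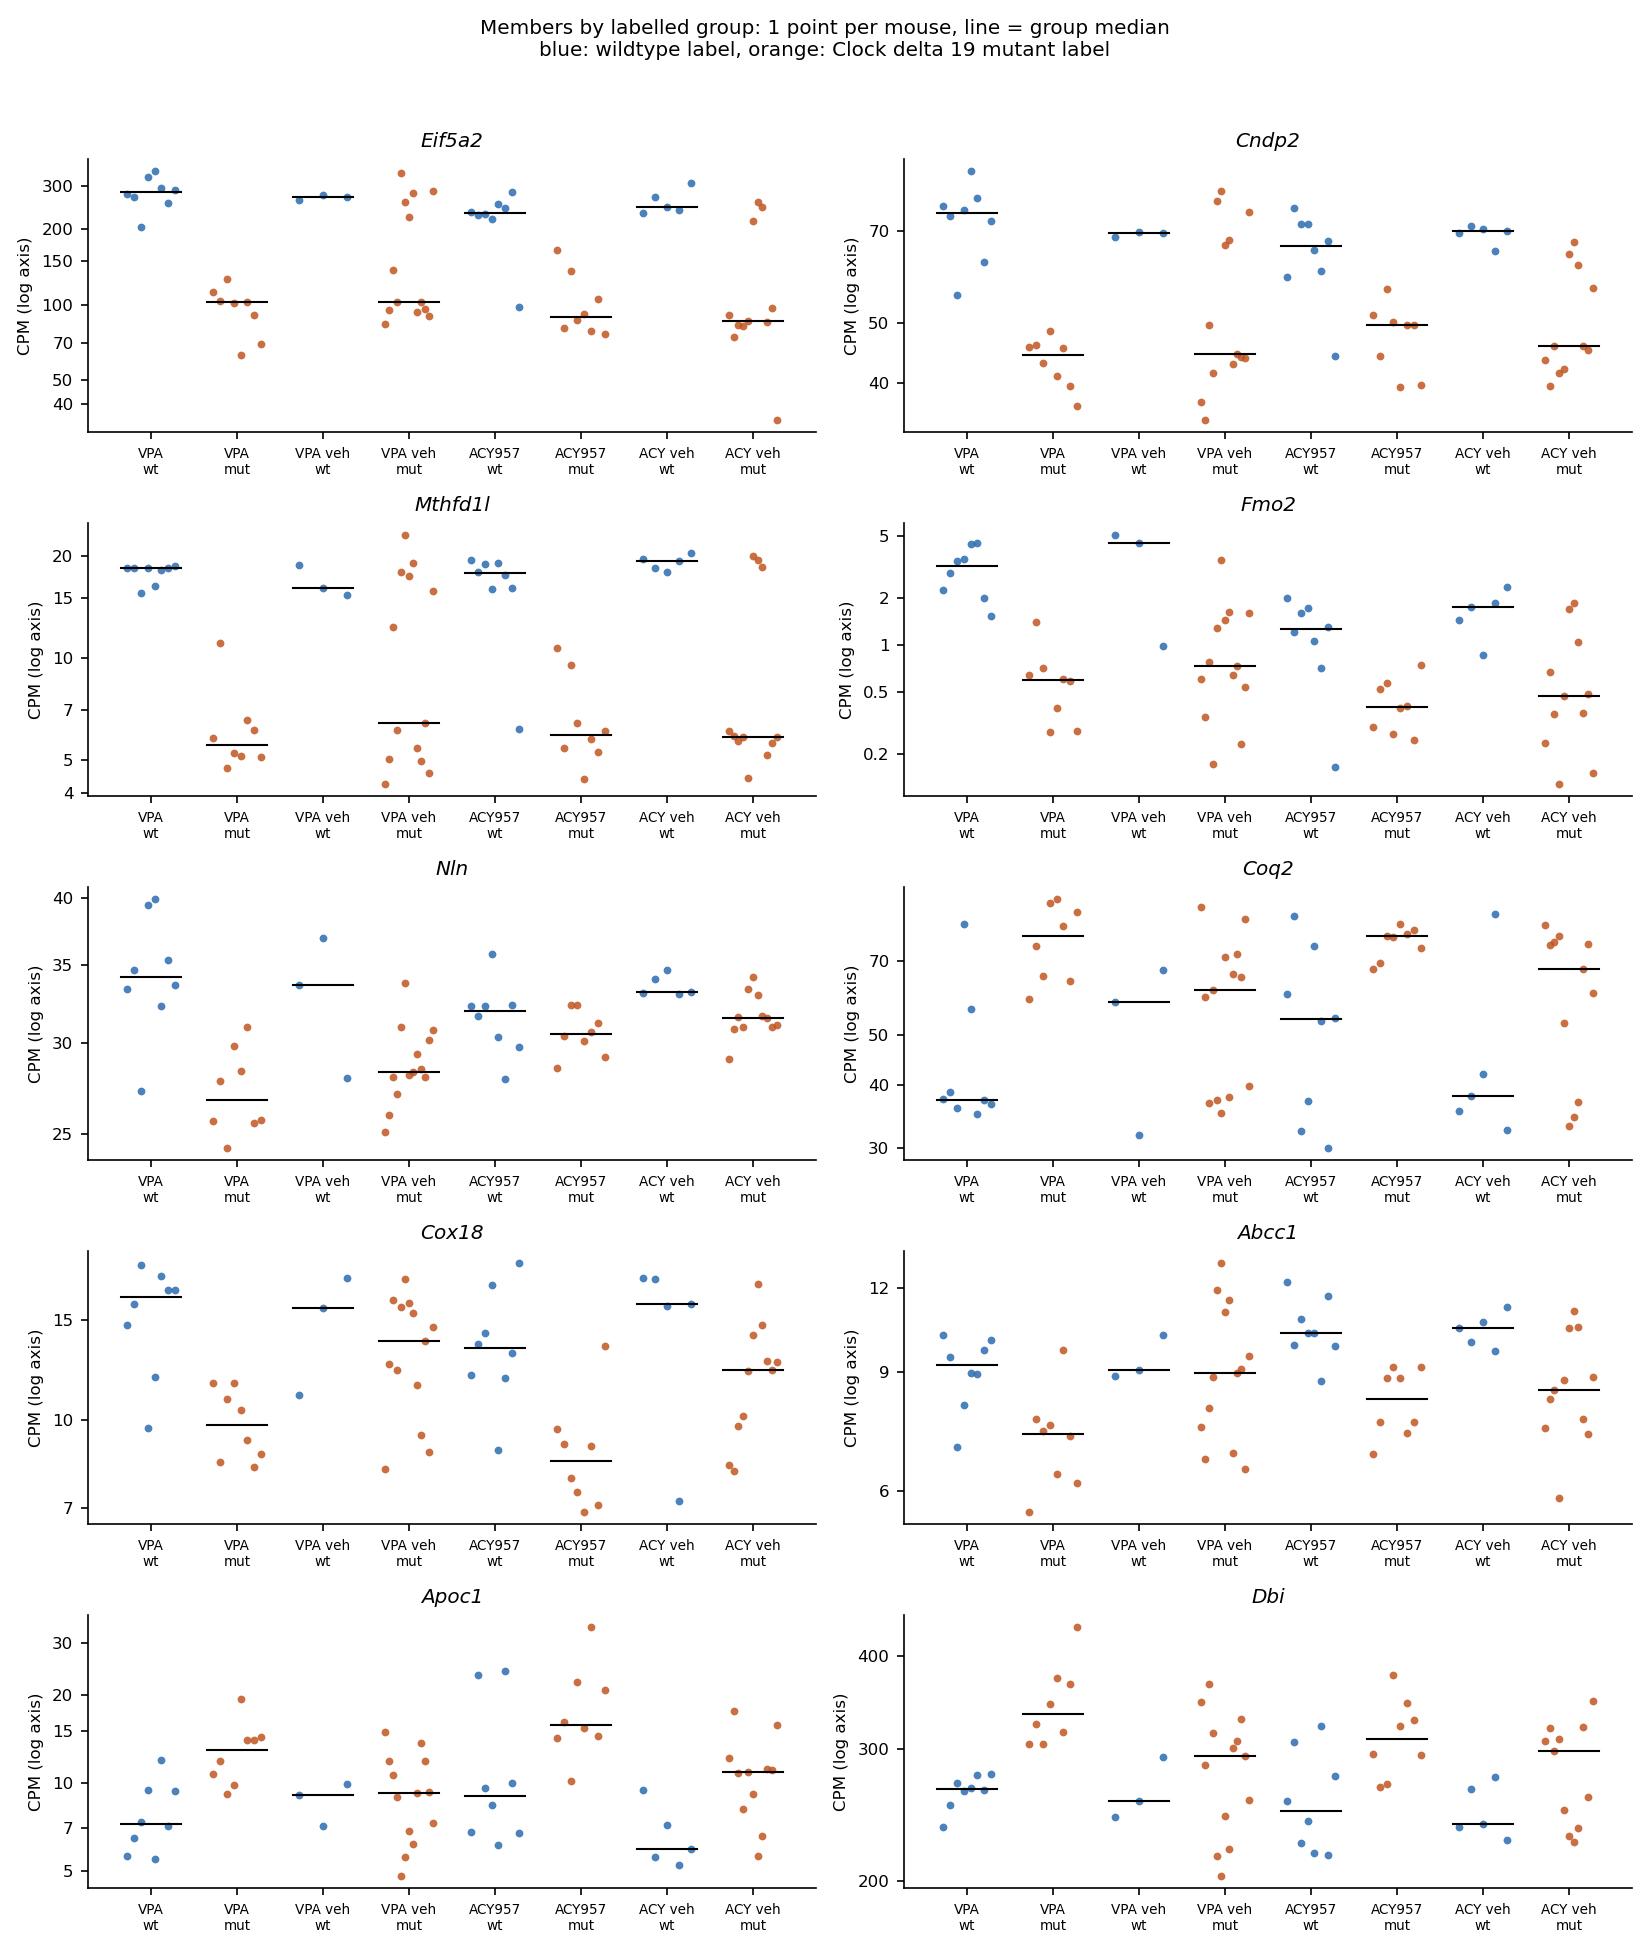
CPM (log axis) of each gene in the 8 labelled groups, 1 point per mouse, wildtype label in blue and mutant label in orange, with a line at the group median. Eif5a2, Mthfd1l, Cndp2 and Fmo2 split the mutant-labelled vehicle groups into high and low points, and mouse 24 sits low in the ACY957 wildtype-labelled group.

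Eif5a2 and Mthfd1l separated the libraries most sharply. Eif5a2 (chromosome 3, 28781276 to 28798846, plus strand, mm10) encodes a second form of the hypusine-bearing translation factor eIF5A. In VPA mice its lowest, median and highest levels were 204, 283 and 342 CPM under the wildtype label and 62.7, 102 and 127 CPM under the mutant label. In ACY957 mice they were 98.1, 233 and 283 CPM and 76.3, 89.3 and 165 CPM. In both drug groups every mutant-labelled value lay below every wildtype-labelled value other than that of mouse 24, the one low value under the wildtype label. In VPA vehicle mice the 3 wildtype-labelled values were 263, 270 and 275 CPM, and the 13 mutant-labelled ranged from 83.7 to 336 CPM with a median of 102 CPM. In ACY957 vehicle mice the 5 wildtype-labelled values were 234, 239, 247, 270 and 308 CPM, and the 11 mutant-labelled ranged from 34.4 to 259 CPM with a median of 86.2 CPM. In both vehicle groups labelled mutant the values reached into or above the wildtype-labelled range. The mean difference over the 4 treatments, mutant label minus wildtype label, was -1.11 on the log2 scale (SE 0.15).

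Placed by clock output, Eif5a2 lay at 204 to 342 CPM in the 23 upper-set libraries labelled wildtype and at 34.4 to 127 CPM in the 28 lower-set libraries labelled mutant. Mouse 24, labelled wildtype but low in clock output, had 98.1 CPM. The 8 vehicle mice labelled mutant, numbered 48 and above and high in clock output, had 336, 257, 224, 280, 284, 216, 259 and 245 CPM in order of number. In these 9 libraries the Eif5a2 level lay on the side of the clock output, not of the label. Mice 26, 34, 40 and 42 had 103, 138, 165 and 136 CPM, so 1 of the 4 lay within the lower range and the other 3 between both ranges. Mouse 64 (ACY957 vehicle, mutant label), at 34.4 CPM, had the lowest Eif5a2 of all libraries, with 5.82 CPM of Mthfd1l and 56.8 CPM of Cndp2.

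Mthfd1l (chromosome 10, 3973118 to 4167081, plus strand) encodes the mitochondrial formyltetrahydrofolate synthetase that releases formate from the folate cycle. In VPA mice the lowest, median and highest levels were 15.6, 18.4 and 18.6 CPM under the wildtype label and 4.72, 5.52 and 11.1 CPM under the mutant label. In ACY957 mice they were 6.16, 17.8 and 19.5 CPM and 4.40, 5.93 and 10.7 CPM. The VPA groups did not overlap, while the ACY957 groups overlapped through mouse 24 (6.16 CPM) and mice 40 and 42 (10.7 and 9.49 CPM). Wildtype-labelled vehicle mice lay at 15.3, 16.1 and 18.7 CPM with VPA vehicle and at 17.9, 18.3, 19.3, 19.5 and 20.4 CPM with ACY957 vehicle. Mutant-labelled vehicle mice ranged from 4.25 to 22.9 CPM (median 6.42) with VPA vehicle and from 4.42 to 19.99 CPM (median 5.85) with ACY957 vehicle. As with Eif5a2, the wildtype-labelled vehicle mice were all high and the mutant-labelled vehicle mice were divided. The mean label difference was -1.11 (log2, SE 0.17).

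By clock output, Mthfd1l lay at 15.3 to 20.4 CPM in the 23 upper-set libraries labelled wildtype and at 4.25 to 6.55 CPM in the 28 lower-set libraries labelled mutant, and mouse 24 at 6.16 CPM. The 8 vehicle mice numbered 48 and above had 15.7 to 22.9 CPM, of which 7 lay within the upper range and mouse 50, with the highest score of all libraries (4.35), above it. Mice 26, 34, 40 and 42 had 11.1, 12.4, 10.7 and 9.49 CPM. All 4 lay between the ranges, above every lower-set library and below every other upper-set library. For Mthfd1l these mice were therefore at neither level, and for Eif5a2 the same held for mice 34, 40 and 42 but not for mouse 26.

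Cndp2 and Fmo2 showed the same placement with more overlap. Cndp2, a cytosolic dipeptidase that splits Cys-Gly and other dipeptides (chromosome 18, 84667465 to 84685702, minus strand), ranged from 44.2 to 87.3 CPM under the wildtype label (median 70.0) and from 34.95 to 81.4 CPM under the mutant label (median 45.6). Mouse 24 was the lowest of the wildtype label, and the next value was 55.3 CPM. The 8 vehicle mice numbered 48 and above had 61.95 to 81.4 CPM, above the 28 lower-set libraries (34.95 to 56.8 CPM), and mice 26, 34, 40 and 42 had 46.1, 49.5, 51.5 and 56.7 CPM. Those 4 lay within the lower-set range, and mouse 42 also just within that of the 23 upper-set wildtype-labelled libraries (55.3 to 87.3 CPM). Its mean label difference was -0.50 (log2, SE 0.07).

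Fmo2, a flavin monooxygenase that oxygenates sulphur and nitrogen in foreign compounds (chromosome 1, 162874317 to 162898726, minus strand), had the largest label difference of the 10, -1.72 (log2, SE 0.23), at the lowest level. It ranged from 0.165 to 5.04 CPM under the wildtype label (median 1.81) and from 0.128 to 3.51 CPM under the mutant label (median 0.552). Mouse 24 again held the lowest wildtype-labelled value, 0.165 CPM, and the 8 vehicle mice numbered 48 and above lay at 1.04 to 3.51 CPM, above all 28 lower-set libraries (0.128 to 0.738 CPM). Mice 26, 34, 40 and 42 had 1.41, 0.780, 0.298 and 0.565 CPM, divided between both ranges.

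**Figure D2:**
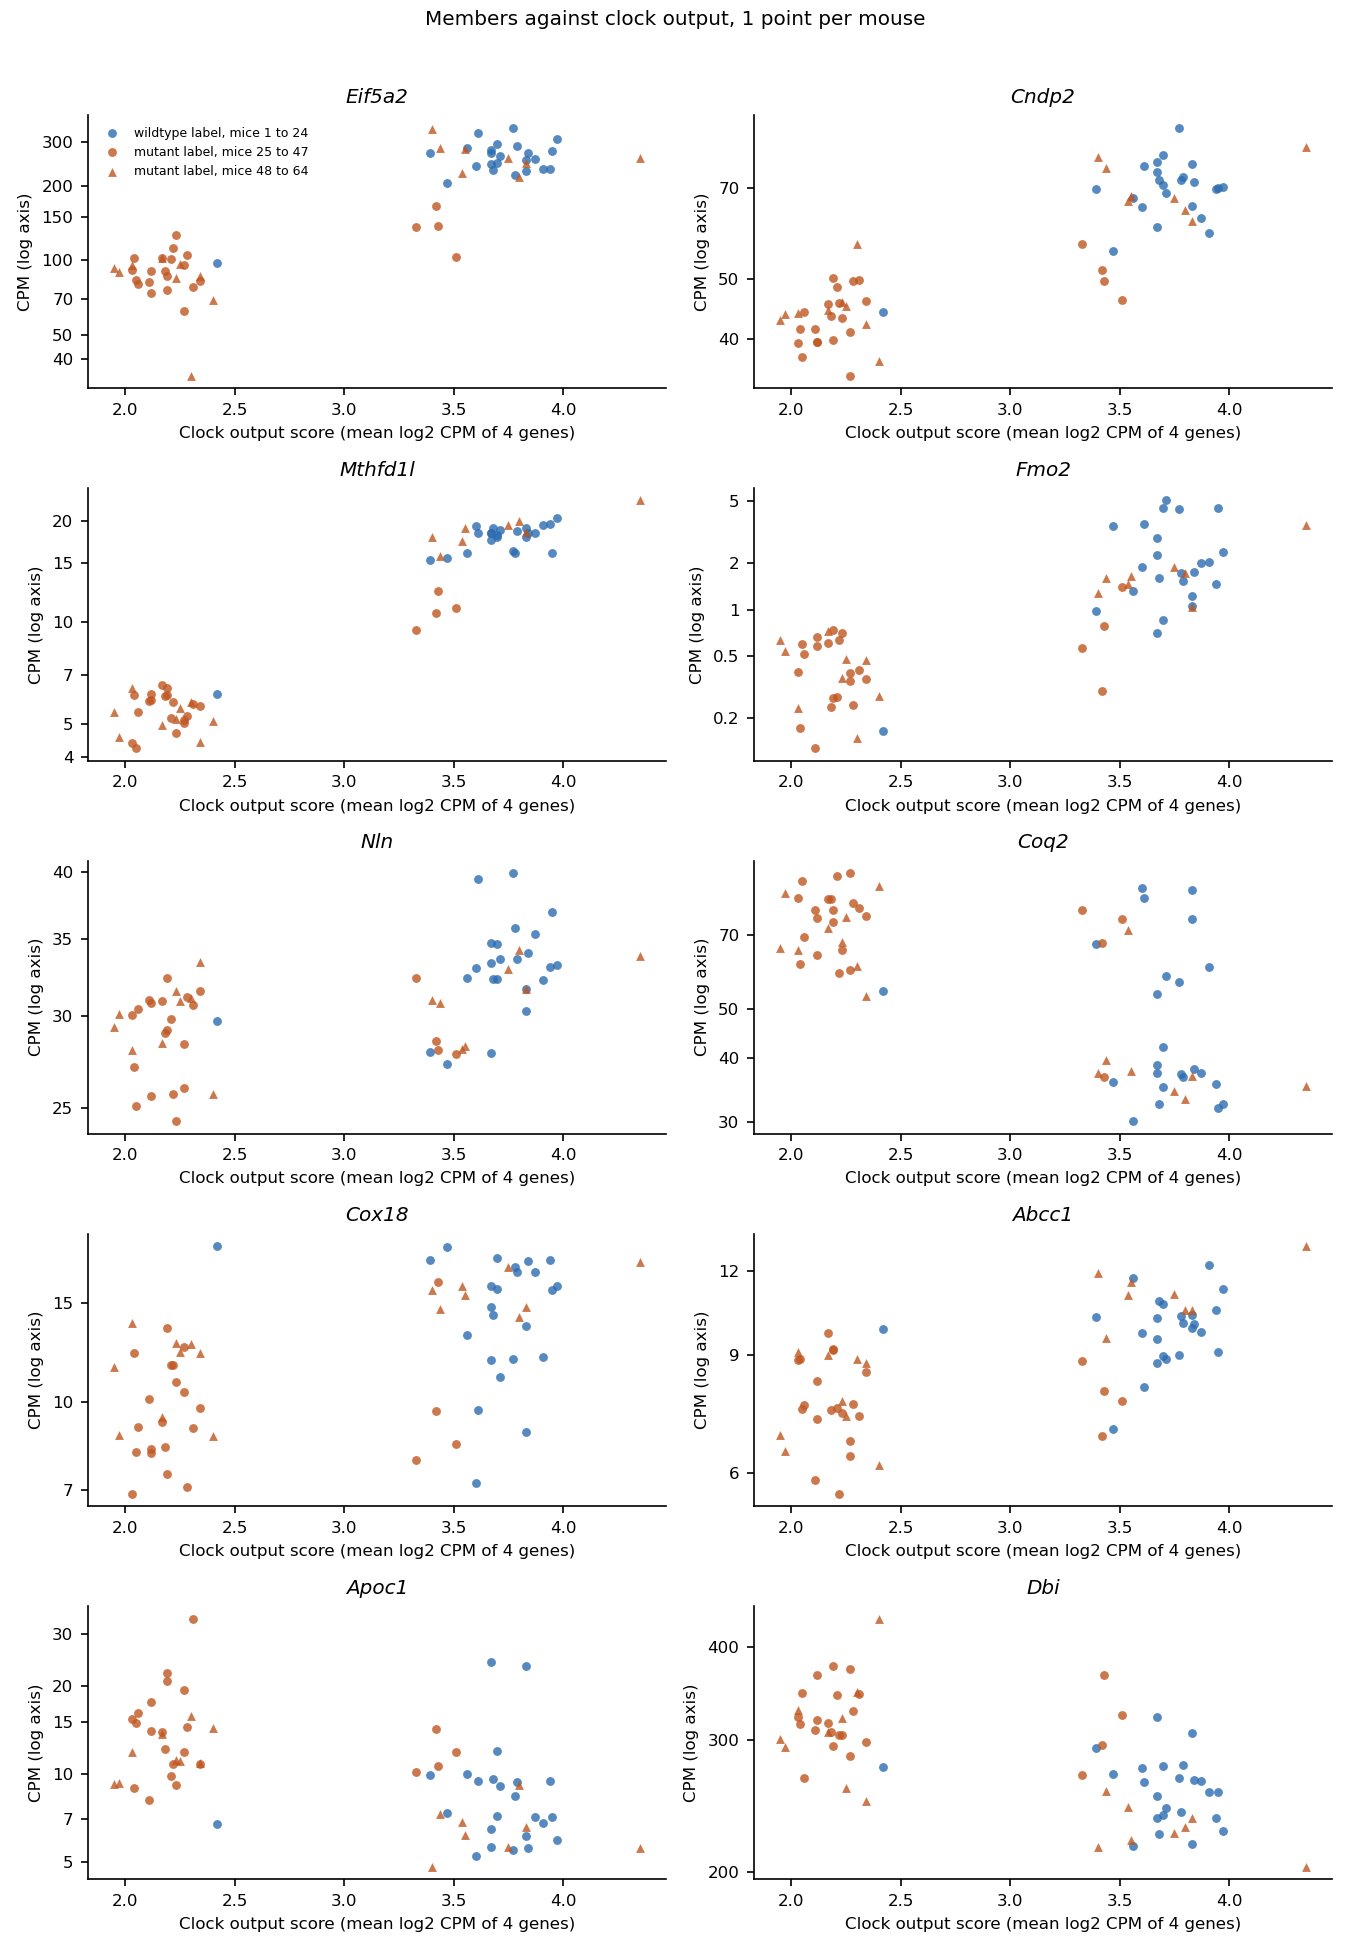
CPM (log axis) of each gene against the clock output score, 1 point per mouse, with mutant-labelled mice numbered 48 to 64 as triangles. Eif5a2 and Mthfd1l follow the score into separate clouds, while Nln and Cox18 overlap across the scores. For Cox18 the 8 vehicle mice numbered 48 and above still lie over all 28 mutant-labelled lower-set libraries. Of 4 mutant-labelled mice near a score of 3.4, all 4 lie between the clouds for Mthfd1l and 3 for Eif5a2.

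The peptidase Nln differed least. Nln (chromosome 13, 104023057 to 104109614, minus strand), or neurolysin, is a metallopeptidase that cleaves neurotensin and other short peptides. It ranged from 27.3 to 39.9 CPM under the wildtype label (median 33.1) and from 24.3 to 34.2 CPM under the mutant label (median 30.1), a mean difference of -0.16 (log2, SE 0.03). All of the 13 libraries with clock output against their label lay within the range of the 23 upper-set wildtype-labelled libraries, 27.3 to 39.9 CPM, and 11 of them also within that of the 28 lower-set libraries, so Nln did not place them.

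Of the 2 mitochondrial genes, Coq2 was higher and Cox18 lower under the mutant label, and both lie on chromosome 5, as does Clock. Coq2 (100654723 to 100675140, minus strand, starting 24.44 Mb from Clock) attaches the polyprenyl tail in ubiquinone synthesis. Cox18 (90214724 to 90224001, minus strand, 14.0 Mb from Clock) helps insert a mitochondrially encoded subunit of cytochrome c oxidase into the inner membrane. The mean label differences were 0.45 (log2, SE 0.12) for Coq2 and -0.44 (SE 0.09) for Cox18.

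Coq2 fell into separate levels under both labels. It lay at 30.0 to 42.1 CPM in 22 libraries and at 52.97 to 92.5 CPM in the other 42, with none between. Of the 24 wildtype-labelled libraries 14 were in the low range and 10 in the high range, and of the 40 labelled mutant 8 were low and 32 high. All 22 low libraries had upper-set clock output, and all 29 lower-set libraries had high Coq2, but 13 upper-set libraries had high Coq2 as well. Of the 8 vehicle mice numbered 48 and above, 7 were low (33.2 to 39.7 CPM) and mouse 51 was at 71.5 CPM. Mouse 34 had 36.8 CPM, and mice 26, 40 and 42 had 75.1, 67.5 and 78.5 CPM. Coq2 thus did not separate by label or by clock output alone. Its transcripts share 2.98% of their 75-base windows, the read length, with the predicted gene Gm6728, so a small part of its reads could be split between both.

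Cox18 ran mostly opposite to Coq2. It was at 13.1 to 18.8 CPM in all 22 libraries with low Coq2, and at 6.90 to 18.9 CPM in the 42 with high Coq2. Its range was 7.22 to 18.9 CPM under the wildtype label (median 15.8) and 6.90 to 17.7 CPM under the mutant label (median 11.2). Mouse 24 had the highest Cox18 of all, 18.9 CPM, with 54.2 CPM of Coq2. Mouse 15 (ACY957 vehicle, wildtype label, replicate 4) had the lowest wildtype-labelled Cox18, 7.22 CPM, and the highest wildtype-labelled Coq2, 86.6 CPM. Within the 23 upper-set libraries labelled wildtype, Coq2 and Cox18 had a Pearson r of -0.72 (permutation p = 0.00021, adjusted p = 0.00945 over 45 pairs of the 10 genes) and a Spearman rho of -0.53 (permutation p = 0.00958, adjusted p = 0.216). The r was -0.71 without the 2 libraries farthest from the median of Coq2. Within the 28 lower-set libraries labelled mutant, r was -0.55 (permutation p = 0.00276, adjusted p = 0.0664), rho -0.56 (permutation p = 0.00246, adjusted p = 0.0531), and r -0.51 without 2 such libraries.

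**Figure D3:**
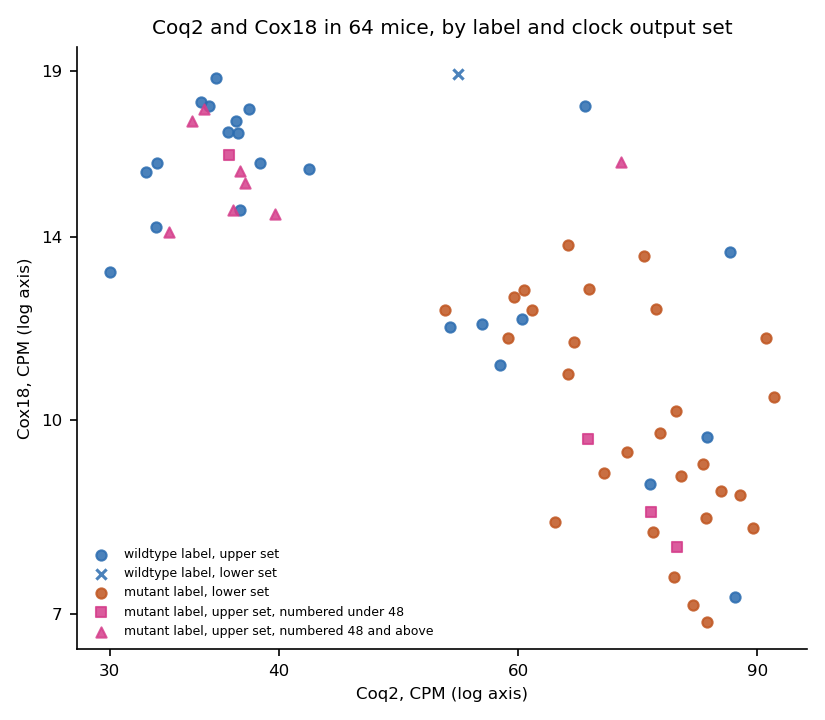
Cox18 against Coq2 in CPM (both log axes), 1 point per mouse, coloured by genotype label and clock output set. The 22 libraries with Coq2 at or under 42.1 CPM all have Cox18 at or above 13.1 CPM and include 8 labelled mutant, while mouse 24 (cross) combines 54.2 CPM of Coq2 with the highest Cox18.

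The genes most like Coq2 over the 64 libraries, by Pearson r of log2 CPM with group means removed, were Sdad1 (0.72), Naaa (0.70) and Rchy1 (0.68). They lie on chromosome 5 too, starting at 92284010, 92257659 and 91948904, beyond 1 Mb from Coq2 and between Cox18 and Coq2. Cxcl5 (0.72) and Cxcl11 (0.62), both on chromosome 5, and Carns1 (0.54), on chromosome 19, were most like Cox18. Cxcl11 starts at 92359544, in the same stretch as Sdad1, Naaa and Rchy1. Cxcl5, a chemokine that starts 0.54 Mb from Cox18, was itself lower under the mutant label (-0.83, SE 0.22, adjusted p = 0.0276, edgeR), with a clock output slope of 0.36 (SE 0.18, adjusted p = 0.246, edgeR). Of tested genes starting 10 to 30 Mb from Clock, 4 of 139 (2.88%) passed by label, Coq2 and Cox18 among them, and 5.76% with clock output. Within 10 Mb of Clock 0 of 65 passed by label. On other chromosomes the shares were 1.6% by label and 4.2% with clock output. The likenesses above are descriptions, since both sets of clock output are mixed in the 64 libraries.

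The other 3 genes act in export and lipid handling, and over all treatments their ranges overlapped between the labels. Abcc1, a pump that exports glutathione conjugates (chromosome 16, 14361558 to 14475737, plus strand), ranged from 6.97 to 12.3 CPM under the wildtype label (median 9.93) and from 5.58 to 13.1 CPM under the mutant label (median 8.09), a mean difference of -0.25 (log2, SE 0.06). The 8 vehicle mice numbered 48 and above had 9.53 to 13.1 CPM and mice 26, 34, 40 and 42 had 6.80 to 8.81 CPM.

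Apoc1, a small apolipoprotein of lipoprotein particles (chromosome 7, 19689481 to 19692660, minus strand), ranged from 5.24 to 24.1 CPM under the wildtype label (median 7.26) and from 4.81 to 33.97 CPM under the mutant label (median 11.1), with a mean difference of 0.54 (log2, SE 0.14). Dbi, the acyl-CoA binding protein whose peptides also act on GABA-A receptors (chromosome 1, 120113280 to 120121078, minus strand), ranged from 217 to 323 CPM (median 260) and from 203 to 437 CPM (median 307), a mean difference of 0.24 (log2, SE 0.05). In the 8 vehicle mice numbered 48 and above, Apoc1 lay at 4.81 to 9.14 CPM and Dbi at 203 to 256 CPM, the low end of both genes. Mouse 24 had 6.74 CPM of Apoc1 and 277 CPM of Dbi, each within the range of the other wildtype-labelled mice, unlike its Eif5a2, Mthfd1l, Cndp2 and Fmo2.

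**Figure D4:**
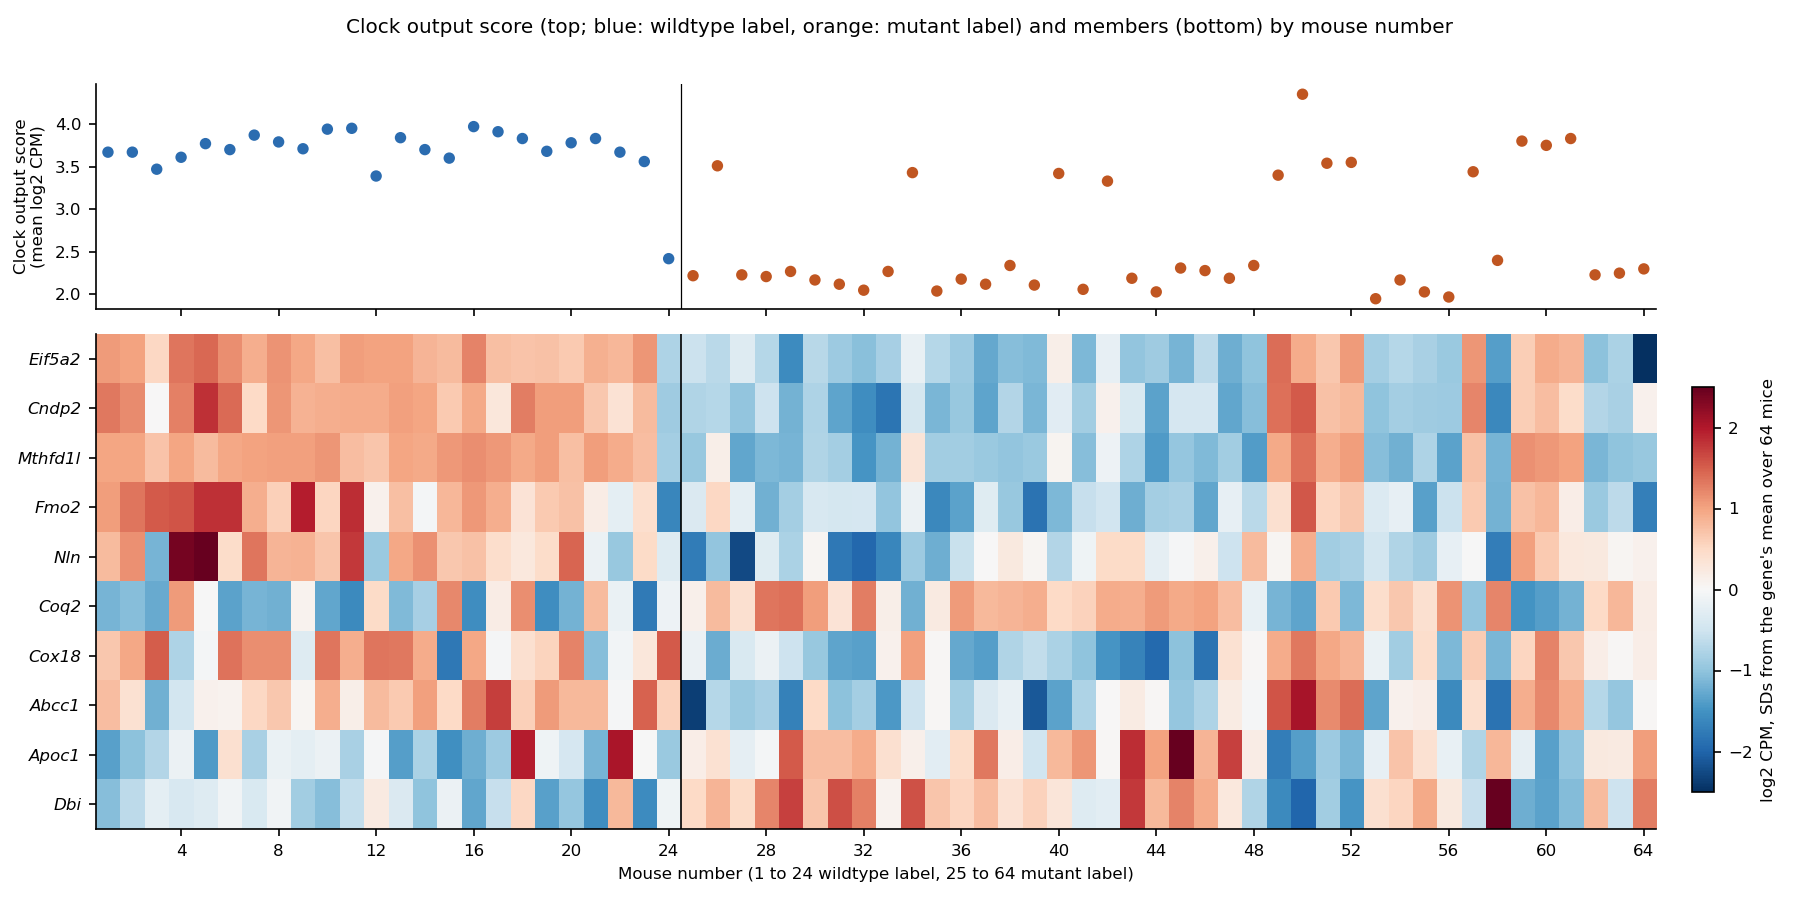
Clock output score by mouse number (top) and log2 CPM of each gene in standard deviations (SDs) from its mean over the 64 mice (bottom, red high and blue low). The red and blue blocks change at mouse 24, and again at mice 49 to 52, 57 and 59 to 61, where Eif5a2, Cndp2, Mthfd1l and Fmo2 are high under the mutant label.

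The label calls are given only to describe the choice, since the averaged, by-treatment and range counts all use the values the genes were chosen on. Averaged over treatments, 10 of the 10 genes passed in the label comparison (edgeR), beside 1.56% of the 15634 genes tested. By treatment, 7 of 10 passed in VPA mice (0.934% of all genes), and 0 in ACY957 mice (0% of all genes, 9 of the 10 at an unadjusted p under 0.05), VPA vehicle mice (0.0064%, 3 of the 10) and ACY957 vehicle mice (0.0128%, 6 of the 10). DESeq2 called 8, 0, 0 and 0 of the 10 there, and limma voom 7, 0, 0 and 0. The label ranges did not overlap for 5 genes in VPA mice (Eif5a2, Cndp2, Mthfd1l, Fmo2 and Dbi, beside 0.23% of all genes), and overlapped for all 10 in the other 3 treatments. Non-overlapping genes were 0.0576% of all genes with ACY957, 0.352% with VPA vehicle and 0.0448% with ACY957 vehicle. Averaged and in each treatment 7 of the genes had a lower and 3 a higher fitted mean under the mutant label.

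The label difference was then fitted with the clock output score in the model, an alternative added after the data were examined. The differences shrank to -0.27 (SE 0.12) for Eif5a2, -0.12 (SE 0.07) for Mthfd1l, -0.11 (SE 0.06) for Cndp2 and -0.56 (SE 0.22) for Fmo2. Coq2 went from 0.45 to -0.01 (SE 0.14), Abcc1 from -0.25 to 0.00 (SE 0.07), Dbi from 0.24 to 0.02 (SE 0.06) and Apoc1 from 0.54 to 0.10 (SE 0.18). Cox18 had -0.23 (SE 0.11) and Nln -0.09 (SE 0.04). With the score included 0 of the 10 passed in edgeR in the mean over treatments, against 0.0128% of all genes, and 1536 genes had an unadjusted p under 0.05. In VPA mice 0 of the 10 passed as well, against 0.032% of all genes. DESeq2 and limma voom were not run with the score. Label and score go together in 51 of 64 libraries, so this fit rests largely on the other 13.

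The score's own slope was fitted beside 8 group means, so that it drew only on differences between mice of the same label and treatment. Of the 10 genes 8 passed, against 4.23% of the 15634 genes (edgeR, Benjamini-Hochberg adjustment). The slope did not use the label contrast, but the genes were chosen by label in these same libraries, with earlier results known. Label and score go together in 51 of 64 libraries, so the count of 8 is no independent test of the genes. Per unit of score, Mthfd1l rose by 1.01 (log2, SE 0.04, adjusted p = 2.5e-27), second by p-value of all genes after Ciart, which is part of the score. Eif5a2 rose by 0.82 (SE 0.07, adjusted p = 1.95e-13), Fmo2 by 1.16 (SE 0.14, adjusted p = 4.07e-09) and Cndp2 by 0.37 (SE 0.04, adjusted p = 2.69e-11). The 4 genes of the score itself rose by 1.56 (Ciart, SE 0.07), 1.03 (Per2, SE 0.07), 0.79 (Dbp, SE 0.05) and 0.67 (Per3, SE 0.04).

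Smaller slopes passed for the transporter and lipid genes and for Coq2. Abcc1 rose by 0.23 (SE 0.04, adjusted p = 0.000546, edgeR), Dbi had a slope of -0.19 (SE 0.04, adjusted p = 0.000931), Coq2 of -0.40 (SE 0.09, adjusted p = 0.00435) and Apoc1 of -0.37 (SE 0.11, adjusted p = 0.0445). The slopes of Cox18 (0.20, SE 0.07, adjusted p = 0.0798) and Nln (0.07, SE 0.02, adjusted p = 0.111) did not pass in edgeR. Apoc1 no longer passed when any one of 21 libraries was left out (adjusted p up to 0.118), and Cox18 passed without mouse 24 or without ACY957 mutant-labelled replicate 8 (lowest adjusted p = 0.0153).

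The slope was refitted in parts of the libraries. In mutant-labelled libraries alone 9 of the 10 passed (4.09% of 15048 genes), Cox18 among them at 0.26 (SE 0.06, adjusted p = 0.00938, edgeR). In wildtype-labelled libraries alone, where mouse 24 is the single lower-set library, 2 passed (0.0393% of genes): Mthfd1l at 0.93 (SE 0.12, adjusted p = 0.000341, edgeR) and Eif5a2 at 0.79 (SE 0.15, adjusted p = 0.0378). Without the 16 vehicle mice numbered 48 and above, 3 passed (0.225%): Mthfd1l at 0.82 (SE 0.06), Eif5a2 at 0.52 (SE 0.09) and Cndp2 at 0.25 (SE 0.05). There Coq2, Abcc1, Apoc1 and Dbi fell to -0.20, 0.03, -0.10 and -0.05.

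**Figure D5:**
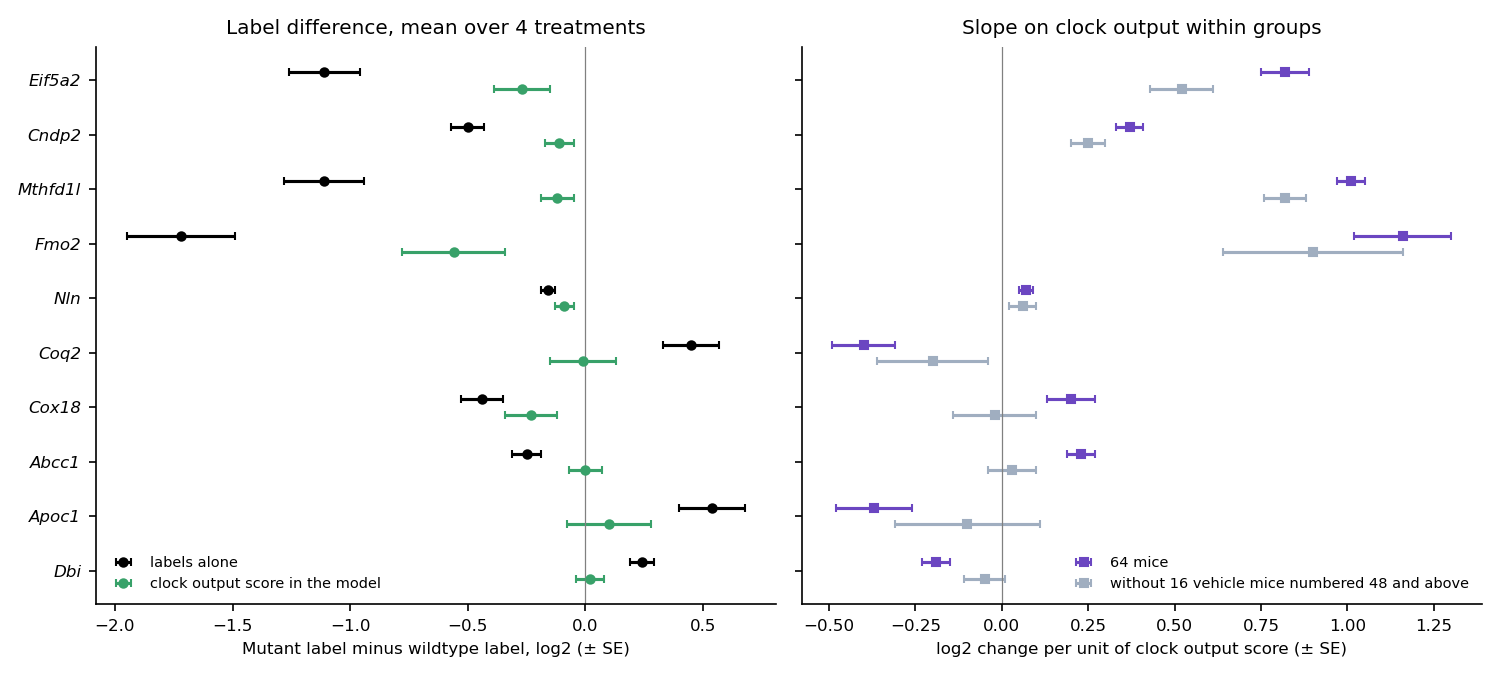
Left, mutant label minus wildtype label (log2, ± SE) without and with the clock output score in the model; right, slope on the clock output score within groups (log2 per unit, ± SE) in 64 mice and without 16 vehicle mice numbered 48 and above. With the score in the model the label differences move towards 0, and without the 16 mice the slopes of Mthfd1l (0.82), Eif5a2 (0.52) and Cndp2 (0.25) still pass in edgeR.

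The genes were also set against the score within each set of clock output. Of 30 correlations (10 genes in 3 sets, 23 wildtype-labelled upper, 28 mutant-labelled lower and 12 mutant-labelled upper), 0 passed by Pearson r and 1 by Spearman rho after adjustment, with 5 and 4 at an unadjusted permutation p under 0.05. The one was Mthfd1l in the 12 mutant-labelled upper-set libraries, at rho 0.83 (permutation p = 0.0013, adjusted p = 0.039) and r 0.70 (permutation p = 0.00654, adjusted p = 0.181), with r 0.68 without the 2 libraries farthest from the median score. In the same 12 libraries Fmo2 had r 0.68 (permutation p = 0.019, adjusted p = 0.19) and rho 0.73 (permutation p = 0.00956, adjusted p = 0.143), with r 0.62 without 2 libraries, and Nln, Abcc1 and Dbi had r 0.58, 0.58 and -0.55 (permutation p = 0.0336, 0.0415 and 0.061, adjusted p = 0.249, 0.249 and 0.262) and rho 0.41, 0.48 and -0.51 (permutation p = 0.193, 0.114 and 0.0951, each adjusted p = 0.414), with r 0.44, 0.41 and -0.42 without 2 libraries. With 12 libraries a value that misses the threshold does not show that a gene was unrelated to the score. That set joins the 4 mice at the low end of the score to the 8 numbered 48 and above. In the wildtype-labelled upper set Mthfd1l had r 0.51 (permutation p = 0.0121, adjusted p = 0.181) and rho 0.47 (permutation p = 0.0248, adjusted p = 0.248), and r 0.29 without 2 libraries.

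Between the genes themselves, 41 of 45 pairs passed by Pearson r over all 64 libraries with group means removed, where both sets of clock output are mixed, and 13 of 45 with the score removed too. Within the 23 wildtype-labelled upper-set libraries 3 pairs passed: Coq2 with Cox18, Eif5a2 with Cndp2 (r 0.64, permutation p = 0.00096, adjusted p = 0.0216; rho 0.47, permutation p = 0.0237, adjusted p = 0.235) and Cndp2 with Nln (r 0.61, permutation p = 0.00213, adjusted p = 0.0319; rho 0.46, permutation p = 0.029, adjusted p = 0.235). Without the 2 libraries farthest from the median, Eif5a2 with Cndp2 fell to r 0.39 and Cndp2 with Nln to r 0.35, so both relations rest on those libraries. Within the 28 mutant-labelled lower-set libraries 0 pairs passed by permutation, with 6 at an unadjusted p under 0.05. There Eif5a2 and Cndp2 had r -0.22 (permutation p = 0.254, adjusted p = 0.519) and rho 0.18 (permutation p = 0.347, adjusted p = 0.679), and r 0.30 without 2 libraries, while Cndp2 and Nln had r 0.54 (permutation p = 0.00295, adjusted p = 0.0664), rho 0.55 (permutation p = 0.00264, adjusted p = 0.0531) and r 0.49.

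The most similar genes elsewhere in the genome differed by member. Mthfd1l was most like the clock repressors Ciart (r 0.93 over 64 libraries, group means removed) and Cry2 (0.90) and the output factor Dbp (0.86). Eif5a2 was most like Nr1d2 (0.88), a repressor of the clock's accessory loop, Ciart (0.86) and Gpr155 (0.85), and Cndp2 like Ciart (0.82), Dbp (0.81) and Ctsf (0.79). Fmo2 was most like Per2 (0.75), Cry2 (0.74) and the interferon-induced gene Ifit3b (0.74). The remaining genes were not led by clock genes. Dbi was most like the ribosomal protein genes Rps26 (0.83), Rps13 (0.82) and Rps25 (0.82). Apoc1 was most like the noncoding Snhg12 (0.80), Agt (0.76) and Snhg8 (0.75), Abcc1 like Rps6ka1 (0.70), Thoc5 (0.67) and Ddx46 (0.67), and Nln like Cdh8 (0.72), Slc7a8 (0.71) and Chrna3 (0.71), which encodes a nicotinic receptor subunit.

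Mouse number was examined within the 24 mutant-labelled vehicle mice, which span numbers 32 to 64 under 1 label. Per 10 mouse numbers the slope was 0.38 (log2, SE 0.17) for Mthfd1l, 0.35 (SE 0.15) for Eif5a2, 0.51 (SE 0.23) for Fmo2 and 0.19 (SE 0.06) for Cndp2. Each of the 10 genes had an adjusted p of at least 0.646 in edgeR, so 0 of 10 and 0% of 14656 genes passed. At an unadjusted p under 0.05 there were 7 of the 10 and 1123 of all genes, and DESeq2 and limma voom each called 0. Over 6 alternative fits, among them a fit with the score in the model, the mouse number slope ran from 0.03 to 0.44 for Mthfd1l and from 0.04 to 0.37 for Eif5a2. The upper-set libraries among these 24 mice were mouse 34 and 8 numbered 48 and above, so number and score go partly together. Over all 64 libraries, the slopes of the clock output score kept their size with mouse number in the model. They were 1.00 (SE 0.05) for Mthfd1l and 0.82 (SE 0.07) for Eif5a2, and 7 of the 10 passed (3.65% of genes).

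Neither drug moved the genes past the threshold. Against their own vehicle, VPA and ACY957 called 0 of the 10 in either label by edgeR, DESeq2 and limma voom. The shares of all genes called were 0.0256% and 0.0576% for VPA under the wildtype and mutant label, and 0.0064% for ACY957 under each. Under the wildtype label the VPA differences ran from -0.22 (Coq2) to 0.09 (Mthfd1l), with 0 of 10 at an unadjusted p under 0.05. Under the mutant label they ran from -0.81 (Mthfd1l, SE 0.29, adjusted p = 0.217, edgeR) to 0.47 (Apoc1), with 8 of 10 at an unadjusted p under 0.05, where the vehicle group held 6 upper-set libraries of 13 and the VPA group 1 of 8.

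For ACY957, Apoc1 had the largest value under both labels, 0.84 (log2, SE 0.30, adjusted p = 0.999, edgeR) in wildtype-labelled and 0.76 (SE 0.23, adjusted p = 0.399) in mutant-labelled mice, from 5.24 to 9.42 CPM in the 5 vehicle and 6.11 to 24.1 CPM in the 8 drug libraries labelled wildtype. It was the 1 gene of the 10 at an unadjusted p under 0.05 under the wildtype label, and 1 of 2, with Cox18 (-0.45, SE 0.16), under the mutant label. With the 24 mutant-labelled vehicle mice pooled, Apoc1 passed for ACY957 and Dbi for VPA, each the 1 of 10. In that setting 89 of 15634 genes passed for ACY957 and 149 for VPA, against 1 and 9 with the drug's own vehicle. Upper-set libraries were 6 of 13 VPA vehicle, 3 of 11 ACY957 vehicle, 1 of 8 VPA and 2 of 8 ACY957 mice labelled mutant. In the interaction test of drug and label in edgeR, 0 of 20 values passed and 0 reached an unadjusted p under 0.05. With 3 wildtype-labelled VPA vehicle mice and an SE of up to 0.68 (Fmo2, VPA), this test cannot show that the effects were alike. The 2 vehicles of the mutant label were compared as well, and 0 of 10 passed by any of the 3 tools while 3.59% of all genes did. Nln came nearest, at -0.14 (SE 0.05, adjusted p = 0.0802, edgeR).

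Other genes of the same pathways were counted from fixed lists. Of 74 tested genes on 10 pathway lists, 3 were lower and 0 higher in the mean label comparison (1.56% of all genes), and 2 rose and 2 fell with clock output (4.23% of all genes). The paralog Eif5a and the hypusine enzymes Dhps and Dohh gave 0 of 3 in both, and 13 one-carbon folate genes, Mthfd1, Mthfd2 and Shmt2 among them, gave 0 of 13. So did 4 dipeptide genes, the 2 tested flavin monooxygenases, 8 ABCC transporters and 6 acyl-CoA binding genes. List medians lay between -0.05 and 0.04 for the label and between -0.04 and 0.07 for the slope, with 0.00 for all genes tested in each.

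Single genes did pass on 4 of the lists. Coq10b, a ubiquinone-binding protein, was lower by label (-0.33, SE 0.05, adjusted p = 6.57e-05, edgeR) among 10 ubiquinone genes. The neuropeptide-cleaving peptidase Mme was lower by label (-0.29, SE 0.08, adjusted p = 0.0428, edgeR) and rose with clock output (0.24, SE 0.06, adjusted p = 0.0103), while the neurotensin receptor Ntsr2 fell with it (-0.12, SE 0.03, adjusted p = 0.0343). Among apolipoprotein genes Apod was lower by label (-0.25, SE 0.07, adjusted p = 0.0499, edgeR). Cox19, a copper-handling factor of cytochrome oxidase assembly, fell with clock output (-0.14, SE 0.03, adjusted p = 0.000276, edgeR).

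Cell type markers were set beside the 10 genes. Of 6 microglia markers, 4 were lower under the mutant label (Csf1r -0.17, Cx3cr1 -0.22, P2ry12 -0.30 and Tmem119 -0.17, each passing in edgeR) and 0 passed for clock output. Their summed level was 243.1 to 368.7 CPM in the 23 upper-set libraries labelled wildtype, 218.7 to 341.5 CPM in the 28 lower-set and 274.6 to 331.8 CPM in the 8 vehicle libraries numbered 48 and above. Of 6 endothelial and mural markers, Cldn5 was higher (0.34, SE 0.08) and Rgs5 lower (-0.22, SE 0.06) by label, and both moved the opposite way with clock output (-0.24 and 0.16, adjusted p = 0.00692 and 0.0294, edgeR). Their sum was 248.9 to 390.9 CPM, 267.0 to 394.3 CPM and 297.1 to 394.1 CPM in the same sets.

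For astrocyte, oligodendrocyte, dopamine neuron, hypothalamic and ependymal markers 0 passed in the mean label comparison or for clock output. The summed astrocyte level was 1254.6 to 1948.5 CPM in the upper-set wildtype-labelled and 1372.4 to 2169.1 CPM in the lower-set mutant-labelled libraries. In VPA mice the astrocyte marker Rlbp1 was higher under the mutant label (0.58, SE 0.10, adjusted p = 0.00148, edgeR), as was the endothelial Cldn5 (0.55, SE 0.14, adjusted p = 0.0391), and Rlbp1 was lower with VPA than with vehicle under the wildtype label (-0.70, SE 0.14, adjusted p = 0.0213). In VPA mice the hypothalamic markers Hcrt and Pmch were higher under the mutant label (4.14, SE 0.63, and 4.10, SE 0.61, both adjusted p = 0.000144, edgeR). Both were also higher with VPA than with vehicle under the mutant label (4.36, SE 0.54, and 4.22, SE 0.51, both adjusted p = 3.51e-07, edgeR). The summed hypothalamic level in mutant-labelled VPA mice had a median of 23.9 and a highest value of 586.8 CPM. That sum was 5.6 to 25.9 CPM in the upper-set wildtype-labelled and 7.3 to 586.8 CPM in the lower-set mutant-labelled libraries. Avp or Oxt had a median count of 0 in 3 of the groups. The part of these markers in the 10 genes' values was not tested. Without the 4 libraries low in Th the label differences of Eif5a2, Mthfd1l, Cndp2 and Fmo2 were -1.11, -1.16, -0.50 and -1.75, and 8 of the 10 passed for clock output. In that setting the label calls went from 10 to 8 averaged over treatments, without Coq2 and Apoc1, and from 7 to 5 in VPA mice, without Cox18 and Dbi. With Th as a covariate they stayed at 10 averaged and went to the same 5 in VPA mice.

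Of 130 tested neighbours starting within 1 Mb, 2 passed by label (1.56% of all genes did), Cxcl5 beside Cox18 and Rrn3 beside Abcc1 (-0.10, SE 0.02, adjusted p = 0.00903, edgeR). With clock output 3 passed (4.23% of all genes did), named here after their values were seen, namely Pigc (-0.18) and Mettl13 (0.11) near Fmo2 and Tmem177 (-0.16) near Dbi. Eif5a2, Mthfd1l and Cndp2 had 5, 8 and 7 tested neighbours, of which 0 passed in either comparison.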

How the data were processed

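RNA of ventral tegmental area punches from 64 mice was sequenced by the authors as stranded poly(A) libraries with 75-base reads, per the labels' protocols. The deposited table holds raw read counts per gene symbol. The series' design text names TopHat2 2.0.9 and HTSeq 0.6.1, while the submitters' processing notes name Trimmomatic, HISAT2 and HTSeq on mm10. Which aligner made the deposited counts, and the annotation, are not given in the sources used here. Of 24421 symbols, 23376 matched GENCODE M21, used for positions.

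Counts were tested with edgeR 4.0.16 in R 4.3.3 (TMM scaling, filterByExpr, robust quasi-likelihood fit of 8 group means, 15634 genes, Benjamini-Hochberg adjustment within each comparison, threshold 0.05). DESeq2 1.42.0 and limma voom 3.58.1 were alternatives. The clock output score used log2 CPM with a prior count of 2. Correlations used permutation tests of 100000 resamples. The fits were tested on simulated data. Genes named beside the 10 are the 3 most like each member, members of fixed lists that passed, and neighbours within 1 Mb that passed. The members and lists were chosen with earlier results of these data known. Each mouse gave 1 library, so p-values measure the spread between mice of a group. The values of 1 gene on the pathway lists are not reported here.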

Additional observations from a re-analysis of the deposited data

Results flagged for a closer look

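A gap to the nearest other library that was large for the range of its group (Dixon's test) was flagged 7 times in 50 tests. Each test took 1 gene in 1 group, and chance flags about 1 in 20. Only groups of 5 or 8 mice were tested. The wildtype-labelled VPA vehicle group (3 mice) and the mutant-labelled vehicle groups (13 and 11) were not. All 7 flags came from 3 mice. Mouse 24 (ACY957, wildtype label, replicate 8) accounted for 4 of them. Its Eif5a2 was 98.1 CPM against 221 to 283 CPM in the other 7 mice of its group, its Cndp2 was 44.2 against 59.3 to 76.4 CPM, its Mthfd1l was 6.16 against 16 to 19.5 CPM, and its Fmo2 was 0.165 against 0.712 to 2.01 CPM. The same mouse had the one lower-set clock output score (2.42) under the wildtype label.

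Mouse 26 (VPA, mutant label, replicate 2) had 11.1 CPM of Mthfd1l against 4.72 to 6.55 CPM in its group, with a clock output score of 3.51. Its dopamine neuron markers summed to 233.3 CPM and its hypothalamic markers to 369.3 CPM. Mouse 15 (ACY957 vehicle, wildtype label, replicate 4) had 86.6 CPM of Coq2 against 32.5 to 42.1 CPM, and 7.22 CPM of Cox18 against 15.9 to 17.8 CPM. What sets these mice apart was not tested.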

How the results depend on the processing

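With the clock output score as a covariate the number of the 10 genes called by label went from 10 to 0 averaged over treatments and from 7 to 0 in VPA mice, and Coq2 went from 0.45 to -0.01. Without the 16 vehicle libraries numbered 48 and above, label calls rose from 0 to 3 with ACY957, 3 with VPA vehicle and 3 with ACY957 vehicle, and calls for clock output fell from 8 to 3. Fitting the ACY957 groups alone called 1 (Mthfd1l). Pooling both vehicles called 1 of the 10 for VPA (Dbi) and 1 for ACY957 (Apoc1) under the mutant label, beside 149 and 89 of 15634 genes. In wildtype-labelled libraries alone, where mouse 24 is the single lower-set library, clock output called 2. The slope of Apoc1 there was 0.44 (SE 0.43), against -0.37 (SE 0.11) in all 64 libraries, so its sign there is not settled. A score of 8 genes gave 1 correlation of 30 with clock output in place of 0, and pairs of genes went from 41 to 13 with the score removed, to 3 within the wildtype-labelled upper set and to 0 within the mutant-labelled lower set. The cause of these changes was not tested.

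Leaving out 1 library at a time gave 8 to 10 calls by label averaged over treatments, 5 to 7 in VPA mice and 7 to 9 for clock output. The label call of Coq2 was lost without any one of 31 libraries, that of Apoc1 without any of 5 (VPA vehicle wildtype-labelled replicates 1 and 2, ACY957 vehicle wildtype-labelled replicates 2 and 5, ACY957 mutant-labelled replicate 6) and that of Abcc1 without VPA vehicle wildtype-labelled replicate 3. VPA against vehicle under the mutant label gave 0 to 1 (without VPA replicate 6 or VPA vehicle replicate 3), and the comparison of both vehicles gave 0 to 1 (without ACY957 vehicle replicate 1 or VPA vehicle replicate 6).

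Counts over all genes moved more. The mean label comparison called 244 genes, 598 without the 16 libraries, 2 with the score and 126 to 323 with 1 library left out (126 without VPA vehicle wildtype-labelled replicate 2). In VPA mice 146 became 262 (DESeq2), 67 (groups alone), 237, 84 (without libraries low in Th), 65 (Th as covariate) and 46 to 502. Clock output called 662, then 6 and 35 in the smaller sets, and 256 to 1006 with 1 left out, moving by over 1.5 times without VPA vehicle mutant-labelled replicates 6 (256), 8 (421), 9 (416) and 12 (431) or ACY957 vehicle mutant-labelled replicates 7 (376) and 11 (1006). The label called 0 genes with ACY957 (5 by DESeq2, 8 in the groups alone, 20 without the 16 libraries), 1 with VPA vehicle (0 to 4) and 2 with ACY957 vehicle (0 to 20). Under the wildtype label VPA called 4 (0 to 5 with 1 left out) and ACY957 1 (0 by limma voom). VPA under the mutant label called 9, and 0 to 149 by setting and 3 to 272 with 1 left out. ACY957 called 1 under the mutant label, and 0 to 89 by setting. The vehicles called 561, and 7 to 1264 by setting and 236 to 1024 with 1 left out. Numbers of reads limit Fmo2 most, at 3 to 165 per library.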
